A study of Drosophila melanogaster with 6 samples.

Results

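The genes described here encode the subunits of the 26S proteasome of Drosophila melanogaster and paralogs of these subunits. They were chosen by symbol alone, as every gene of the count files whose name begins with Prosalpha, Prosbeta or Pros and a digit, or with Rpn or Rpt and a digit. This gave 47 of 16727 genes. Of these, 32 carry the plain name of a subunit, 14 in the 20S core (7 in the alpha ring and 7 in the beta ring), 10 in the base and 8 in the lid of the 19S cap. The other 15 carry a T or R suffix and are paralogs of a subunit.

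The proteasome is the protease that degrades proteins tagged with ubiquitin. Its core is a barrel of stacked alpha and beta rings, with the active sites inside the beta rings and a gate formed by the alpha rings. The cap binds the tagged protein, removes the ubiquitin in its lid, and unfolds and threads the chain into the core with the ATPases of its base. In flies several core subunits have a paralog that is known for expression in the testis, where it takes part in spermatogenesis.

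RNA-seq of poly(A) RNA was done on whole second-instar larvae, with 3 CG1603PBac libraries and 3 wt libraries that the labels call biological replicates. CG1603PBac larvae were homozygous for the PiggyBac transgene PBac[SAstopDsRed]LL06826, which sits in an intron of CG1603 and carries splice sites, stop codons and a DsRed marker. The allele is 1 insertion line, kept over a CyO balancer with act-GFP, and its homozygotes arrest as second-instar larvae and die. The wt larvae are labelled only as wild type, and their strain for RNA-seq was not given in the sources used here. CG1603 encodes a zinc finger protein that the study examined as a regulator of mitochondrial genes, and the comparison asks which RNAs differ in larvae without the full-length protein. In RNA from whole larvae, fewer cells of a type and less RNA per cell cannot be told apart.

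Gene counts summed to between 27100927 and 36016914 in the CG1603PBac libraries and between 33377603 and 34883345 in the wt libraries. CG1603 itself had 956, 999 and 1072 counts in the CG1603PBac libraries, against 613, 493 and 571 counts in the wt libraries. A count over the whole gene does not check an insertion that changes splicing and translation, so it neither backs nor contradicts the labels. The genotypes differed widely, since 69.7% of the 11306 genes tested passed the threshold (adjusted p under 0.05 in edgeR's quasi-likelihood test). Over all genes tested, the log2 fold change (CG1603PBac over wt) had a median of 0.06 with TMM scaling, which levels libraries on the bulk of their genes, and 0.45 when libraries were scaled by their totals alone. Genes that mark cycling and imaginal cells were lower in 8 of 8 (median log2 fold change -2.59), muscle genes were lower in 10 of 10 (median -1.20) and neuronal genes were higher in 8 of 8 (median 1.61). With library totals 9 muscle genes were lower and 1, sls, was higher, beside 22.9% of all genes lower and 50.1% higher. Midgut genes were lower in 7 of 10 and higher in 2 (median -1.11), and cuticle genes were lower in 3 of 6 and higher in 2 (median -1.08). Of 5 fat body genes tested 2 were lower, and of 6 hemocyte genes 2 were lower and 2 higher. With TMM scaling 34.9% of all genes tested were called lower and 34.8% higher, and the hemocyte counts lay near these shares. The part of these marker genes in the results below was not tested.

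Every proteasome subunit gene that could be tested was lower in CG1603PBac larvae. Of the 32 subunit genes, 31 passed the filter on low counts, and all 31 fell past the threshold of edgeR's quasi-likelihood test. Among all genes tested, 34.9% were called lower and 34.8% higher. The median log2 fold change of the 31 genes was -0.94, and the median gene stood at 52.3% of its wt level. In 31 of 31 genes each CG1603PBac library lay below each wt library, a pattern that 36.3% of all genes tested showed. A fall of more than 2-fold was called for 14 of the 31, against 15.0% of all genes. Apart from Rpn13, the largest adjusted p in edgeR's quasi-likelihood test was 6.26e-10, and standard errors ran between 0.04 and 0.08 on the log2 scale.

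With library totals in place of TMM factors, 30 of the 31 genes were called lower and 0 by more than 2-fold, while 22.9% of all genes were called lower, 8.18% by more than 2-fold, and 50.1% higher. The median of the subunit genes was then -0.54. Their median minus that of all genes was -0.996, a distance that a change of scaling leaves as it is because it shifts all genes alike. The standard deviation of the fold changes was 0.22 across the 31 genes and 1.34 across all genes. These sets are unlike, since the 31 genes had at least 44.4 CPM in every library. All genes include many with low counts, whose fold changes are less certain. Genes of like level were not compared.

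**Figure D1:**
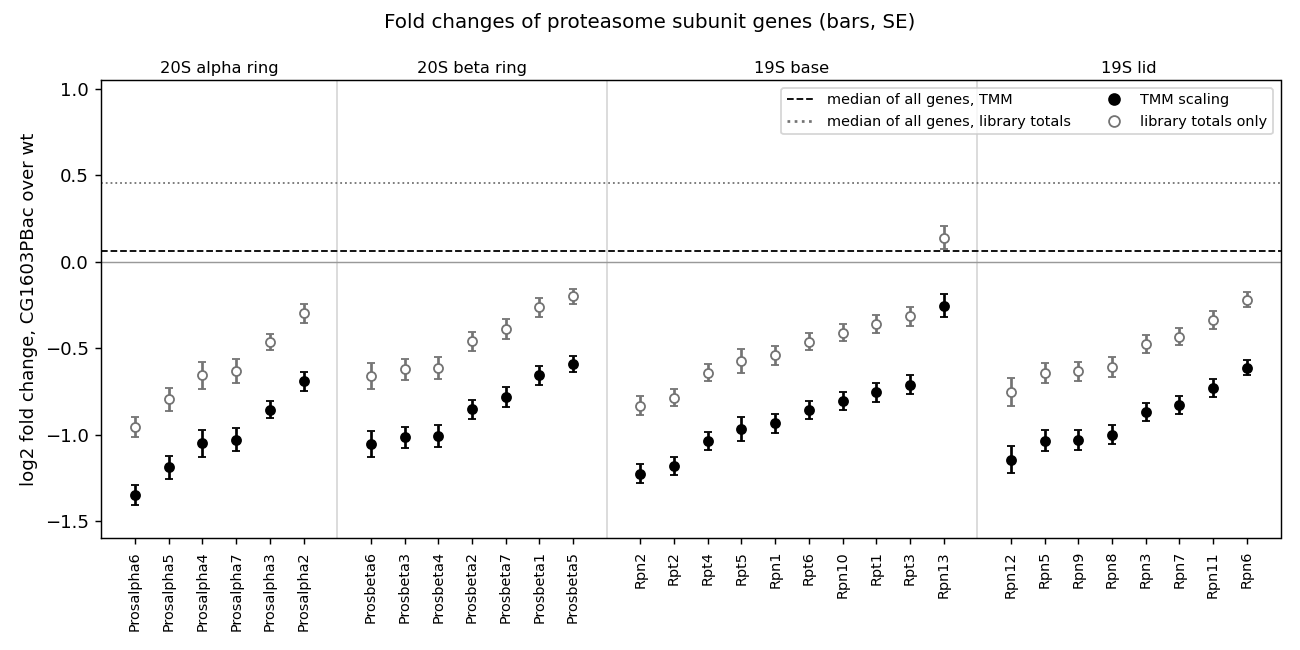
Log2 fold change, CG1603PBac over wt, of the 31 subunit genes tested, ordered within each class, with bars for the standard error (n = 3 libraries each). Filled points are from TMM scaling and open points from library totals, and the dashed and dotted lines are the medians of all genes at 0.06 and 0.45. With TMM scaling every point lies below 0, and with library totals only Rpn13 lies above it.

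The summed RNA of the complex was also lower in each CG1603PBac library, by an amount that depended on the scaling. The subunit genes together made up 0.441 ± 0.00291% of gene counts in CG1603PBac larvae and 0.615 ± 0.00522% in wt larvae (SD, n = 3 each). In CPM, the counts of a gene relative to the TMM-scaled size of its library, their sum was 3852 ± 36.0 in CG1603PBac and 7050 ± 158 in wt larvae. Neither measure overlapped between the genotypes.

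**Figure D2:**
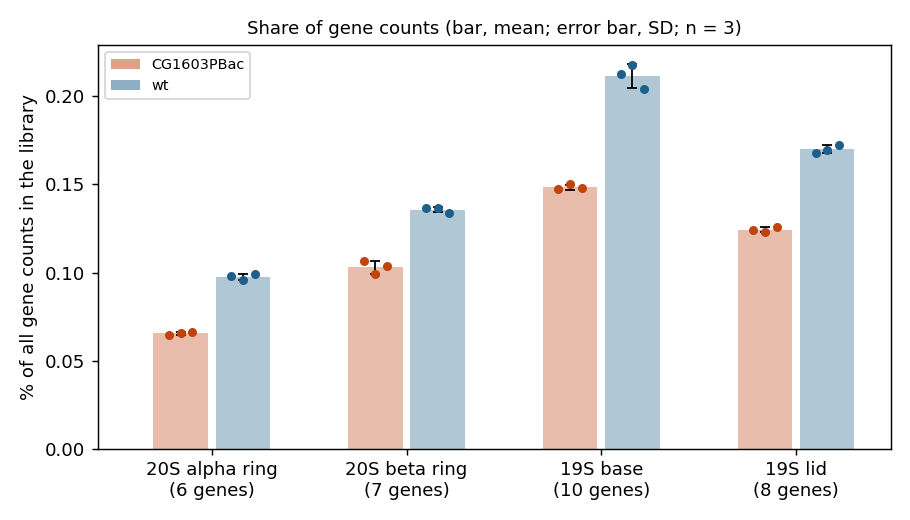
Percent of all gene counts in a library that fell on the genes of each class, for CG1603PBac (left bars) and wt (right bars). Bars are means, error bars are SD and points are the 3 libraries of each genotype. In all 4 classes the CG1603PBac libraries lie below the wt libraries.

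The genes tested of the core, the base and the lid were all lower, with close medians. The median log2 fold change was -1.01 for the 13 core genes tested, -0.90 for the 10 base genes and -0.93 for the 8 lid genes. More than 2-fold falls were called for 7 core, 3 base and 4 lid genes. Summed counts of the core stood at 1.13 ± 0.0332 times those of the base in CG1603PBac larvae and at 1.10 ± 0.0374 times in wt larvae (SD, n = 3 each), with overlapping ranges. The core stood at 1.35 ± 0.0205 times the lid in CG1603PBac and at 1.37 ± 0.0226 times in wt larvae. The lid stood at 0.838 ± 0.0154 times the base in CG1603PBac and at 0.805 ± 0.0354 times in wt larvae. None of these 3 ratios separated the genotypes (p = 0.4, 0.4 and 0.3 in 2-sided exact permutation tests).

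The alpha ring forms the gate of the core and the outer wall of its barrel. Its lowest fold change was that of Prosalpha6 (FBgn0250843, chromosome 2L from 10221351 to 10222546 in dm6). Prosalpha6 had 74.6, 79.9 and 84.2 CPM in the CG1603PBac libraries, against 206, 197 and 206 CPM in the wt libraries. This left 39.2% of the wt level, the smallest share of any subunit gene (log2 fold change -1.35, SE 0.06, edgeR adjusted p = 1.46e-14). Prosalpha5 had 59.4, 61.7 and 58.4 CPM in CG1603PBac and 144, 132 and 134 CPM in wt libraries (log2 fold change -1.19, SE 0.07). At the other end Prosalpha2 had 146, 145 and 146 CPM in CG1603PBac and 221, 234 and 250 CPM in wt libraries (log2 fold change -0.69, SE 0.05). The remaining alpha genes lay between these, with log2 fold changes of -0.86 for Prosalpha3, -1.05 for Prosalpha4 and -1.03 for Prosalpha7.

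Prosalpha1 had no count in any of the 6 libraries. It is a minus-strand gene of chromosome 2R, from 7827303 to 7828678, and a gene that the files call CG30382, with the current symbol Prosalpha1R, lies 1734 bases away from 7830413 to 7831771 on the same strand. CG30382 also had no count in any library. HTSeq set reads aligned to more than 1 place apart from gene counts, and these files cannot tell reads set apart from RNA that was not there, so no level is given for either gene. Whether reads of the pair were set apart was not tested.

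The beta ring holds the proteolytic sites. Prosbeta1, Prosbeta2 and Prosbeta5 carry the caspase-like, trypsin-like and chymotrypsin-like activities, and the other beta subunits have no active site. Prosbeta5 had 313, 292 and 293 CPM in CG1603PBac libraries, against 464, 458 and 432 CPM in wt libraries (log2 fold change -0.59, SE 0.05). Prosbeta1 had 123, 119 and 124 CPM in CG1603PBac and 201, 188 and 188 CPM in wt libraries (log2 fold change -0.66, SE 0.05). These were the smallest falls of the core, at 66.3% of wt for Prosbeta5 and 63.4% for Prosbeta1. The largest fall of the ring was that of Prosbeta6, a structural subunit, with 76.2, 62.2 and 70.1 CPM in CG1603PBac and 141, 153 and 139 CPM in wt libraries (log2 fold change -1.05, SE 0.07). Prosbeta3 and Prosbeta4 were close to it at -1.02 and -1.01, while Prosbeta2 stood at -0.85 and Prosbeta7 at -0.78.

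Within the core, the ratio of the summed counts of the rings, with Prosbeta5 included, separated the genotypes. Summed counts of the alpha ring were 0.635 ± 0.0274 of those of the beta ring in CG1603PBac larvae and 0.719 ± 0.0193 in wt larvae (SD, n = 3 each), and the ranges did not overlap. The 3 catalytic beta genes together had 1.39 ± 0.0640 times the counts of the other 4 in CG1603PBac larvae, against 1.13 ± 0.0372 times in wt larvae, again without overlap. This split of the ring was chosen after the values had been seen. These ratios are of counts within a library and do not depend on its scaling. They do depend on Prosbeta5, which had the most counts of the beta ring and the smallest fall of the core. Prosbeta5 alone held 9739, 10541 and 12050 of the 28854, 31224 and 37288 beta counts in CG1603PBac libraries. In wt libraries it held 13995, 13258 and 12799 of 47719, 45645 and 44683. Neither ratio was tested without Prosbeta5, so no separation of the rings apart from this gene is claimed. The alpha sum also lacks Prosalpha1, which had no count. Both had p = 0.1 in a 2-sided exact permutation test, the smallest p that 3 libraries a side allow in that test, so neither could pass the threshold (p = 0.175 adjusted over the 7 ratios compared).

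The base carries the 6 Rpt ATPases, which unfold substrates and open the gate, together with scaffold subunits and ubiquitin receptors. Rpn2, the large scaffold to which Rpn13 binds, fell most. It had 115, 105 and 111 CPM in CG1603PBac libraries, against 251, 275 and 249 CPM in wt libraries (log2 fold change -1.23, SE 0.06). Among the ATPases Rpt2 fell most, with 146, 141 and 139 CPM in CG1603PBac and 333, 332 and 300.2 CPM in wt libraries (log2 fold change -1.18, SE 0.05). Rpt4 followed with 160, 166 and 169 CPM in CG1603PBac and 341, 354 and 319 CPM in wt libraries (log2 fold change -1.04, SE 0.05). For Rpn2, Rpt2 and Rpt4 each CG1603PBac library thus lay far below each wt library. Rpt3 fell least of the ATPases, with 146, 164 and 149 CPM in CG1603PBac and 259, 258 and 235 CPM in wt libraries (log2 fold change -0.71, SE 0.06). Rpt1 had 124, 130 and 125 CPM in CG1603PBac and 219, 218 and 203 CPM in wt libraries (log2 fold change -0.76, SE 0.05). The levels of the 6 ATPase genes in CG1603PBac larvae thus ran from 44.1% of wt for Rpt2 to 61.1% for Rpt3, and the median of their log2 fold changes was -0.91. Rpt5 stood at -0.97 and Rpt6 at -0.86, and the scaffold Rpn1 and the ubiquitin receptor Rpn10 stood at -0.94 and -0.80.

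Rpn13, the other ubiquitin receptor of the base, had the smallest fall of the 31 subunit genes. Rpn13 (FBgn0033886, chromosome 2R from 13958545 to 13960404) had 97.1, 97.2 and 93.6 CPM in CG1603PBac libraries, against 114, 124 and 105 CPM in wt libraries. Its level was 83.8% of that in wt larvae (log2 fold change -0.25, SE 0.07, edgeR adjusted p = 0.00214). Unlike the other 30 genes, it lost its call with library totals, where its log2 fold change was 0.14 (edgeR adjusted p = 0.0633), and when the trend with exon length was removed, where it was -0.14 (edgeR adjusted p = 0.0631). Within libraries, where scaling plays no part, Rpn13 counts were 2.56 ± 0.0753% of those of all other subunit genes in CG1603PBac larvae and 1.65 ± 0.106% in wt larvae (SD, n = 3 each), without overlap (exact permutation p = 0.1, the smallest possible). This ratio was chosen after the values had been seen.

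The lid holds the deubiquitinase Rpn11 and its inactive partner Rpn8, with scaffold subunits around them. The largest fall was that of Rpn12, with 46.2, 45.1 and 44.4 CPM in CG1603PBac and 107, 90.3 and 103 CPM in wt libraries (log2 fold change -1.15, SE 0.08). Rpn5 had 110, 106 and 124 CPM in CG1603PBac and 232, 237 and 228 CPM in wt libraries (log2 fold change -1.04, SE 0.06). Rpn9 had 110, 120 and 114 CPM in CG1603PBac and 232, 249 and 222 CPM in wt libraries (log2 fold change -1.03, SE 0.06). These 3 genes thus stood at 45.2% (Rpn12), 48.7% (Rpn5) and 49.0% (Rpn9) of their wt levels. Rpn6, a scaffold subunit that clamps the lid to the core, fell least, with 273, 280 and 289 CPM in CG1603PBac and 418, 435 and 434 CPM in wt libraries (log2 fold change -0.61, SE 0.04). Rpn11 had 166, 163 and 155 CPM in CG1603PBac and 282, 252 and 269 CPM in wt libraries (log2 fold change -0.73, SE 0.05). The ranges of Rpn6 and Rpn11 were also separate, although their falls were the smallest of the lid. Rpn7 had 145, 135 and 140 CPM in CG1603PBac and 241, 256 and 248 CPM in wt libraries (log2 fold change -0.83, SE 0.05). Rpn8 had 96.9, 92.8 and 95.3 CPM in CG1603PBac and 189, 185 and 196 CPM in wt libraries. Rpn7 and Rpn8 were lower in every CG1603PBac library, and the log2 fold change of Rpn3 was -0.87. Of the subunit genes, Rpn9 and Rpt6 have 15.7% and 13.0% of their exon length overlapped by genes on the opposite strand. Whether counting used the strand was not given in the sources used here, so their values are less certain.

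**Figure D3:**
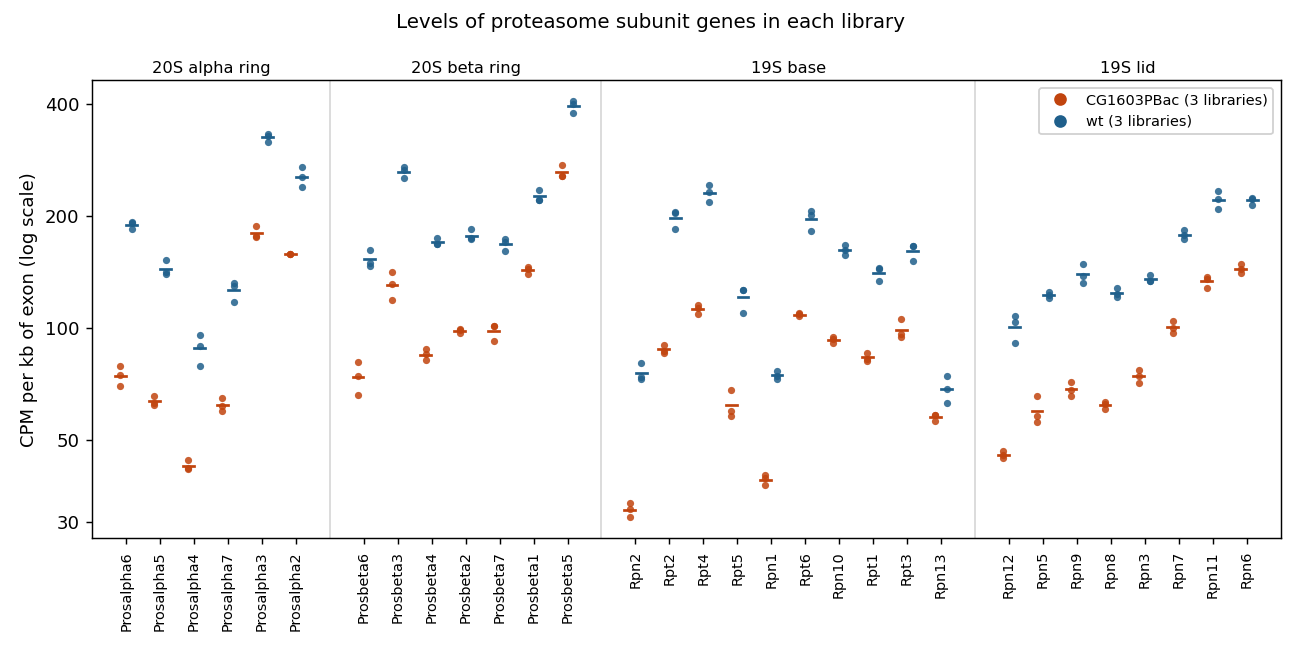
Level of each subunit gene tested in each library, in CPM per kb of exon on a log axis, with CG1603PBac (left) and wt (right) for each gene and a line at each mean. In all 31 genes the 3 CG1603PBac points lie below the 3 wt points, with the narrowest gap at Rpn13.

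Per kb of exon, the levels of the subunit genes kept most of their order between the genotypes. Prosbeta5 had the highest mean in both, with 263 CPM per kb in CG1603PBac and 396 CPM per kb in wt larvae. The lowest gene was Rpn2 in CG1603PBac larvae, at 32.3 CPM per kb, and Rpn13 in wt larvae, at 68.4 CPM per kb. The highest level was 8.13 times the lowest in CG1603PBac and 5.79 times the lowest in wt larvae, and the coefficient of variation across genes was 50.7% in CG1603PBac and 42.0% in wt larvae. Across the 31 genes the mean levels in the genotypes had a Spearman correlation of 0.95. The fold change had one of 0.49 with the mean level per kb, and one of 0.03 with exon length. These are descriptions across genes, which share libraries and are not independent replicates, and the fold change and the mean level come from the same counts.

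The subunit genes are spread over the genome. The median log2 fold change was -0.95 for the 4 on chromosome X, -0.94 for the 4 on 2L, -0.76 for the 9 on 2R, -0.94 for the 5 on 3L and -1.02 for the 9 on 3R. In each of these groups every gene was lower.

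The paralogs were close to the limit of detection. The level of each per kb was at most 2.27% of that of its partner subunit in either genotype, a share reached by Rpn13R in CG1603PBac larvae. Of the 15, only Rpt3R, Rpt4R, Rpt6R and Rpn13R had enough counts to be tested. Of these 4, 2 (Rpt3R and Rpt4R) were called lower and 0 higher by edgeR's quasi-likelihood test, beside 34.9% and 34.8% of all genes. At an unadjusted p under 0.05, 0 of the 4 were higher by edgeR, 0 by DESeq2 and 1 by limma-voom, and neither DESeq2 nor limma-voom called any higher after adjustment.

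Rpt3R, a paralog of the ATPase Rpt3, lies on chromosome 3R from 9754735 to 9756510. It had 33, 35 and 32 counts in the CG1603PBac libraries, against 100, 132 and 107 counts in the wt libraries. The groups were clearly apart (log2 fold change -2.03, SE 0.44, edgeR adjusted p = 3.15e-04), and its log2 fold change lay below the -0.71 of Rpt3. Rpt4R, on chromosome 3L from 11941912 to 11943485, had 29, 5 and 10 counts in the CG1603PBac libraries, against 26, 83 and 105 counts in the wt libraries. It was called lower (log2 fold change -2.48, SE 0.76, edgeR adjusted p = 0.00629), but the highest CG1603PBac library lay above the lowest wt library. The CG1603PBac libraries alone would not have passed the filter on low counts, so the call of Rpt4R leans on the wt libraries. With 1 library left out, the log2 fold change of Rpt4R ran from -3.63 to -2.05 (edgeR adjusted p between 0.0019 and 0.0397). The value of -3.63 came without CG1603PBac replicate 1, its highest CG1603PBac library, a choice that widens the difference. No test compared a paralog with its partner.

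Rpt6R and Rpn13R pointed the other way but did not pass the test. Rpt6R had 48, 76 and 83 counts in CG1603PBac and 22, 10 and 50 counts in wt libraries (log2 fold change 1.03, SE 0.63, edgeR adjusted p = 0.151). With 1 library left out, the log2 fold change of Rpt6R ran from 0.64 to 1.79 (edgeR adjusted p between 0.0248 and 0.344). Only the fit without wt replicate 3, its highest wt library, called it higher. Leaving out that library widens the difference, so this call is no separate support. Rpn13R had 31, 58 and 68 counts in CG1603PBac and 19, 35 and 11 counts in wt libraries (log2 fold change 0.94, SE 0.69, edgeR adjusted p = 0.229). In both genes the ranges of the genotypes overlapped.

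**Figure D4:**
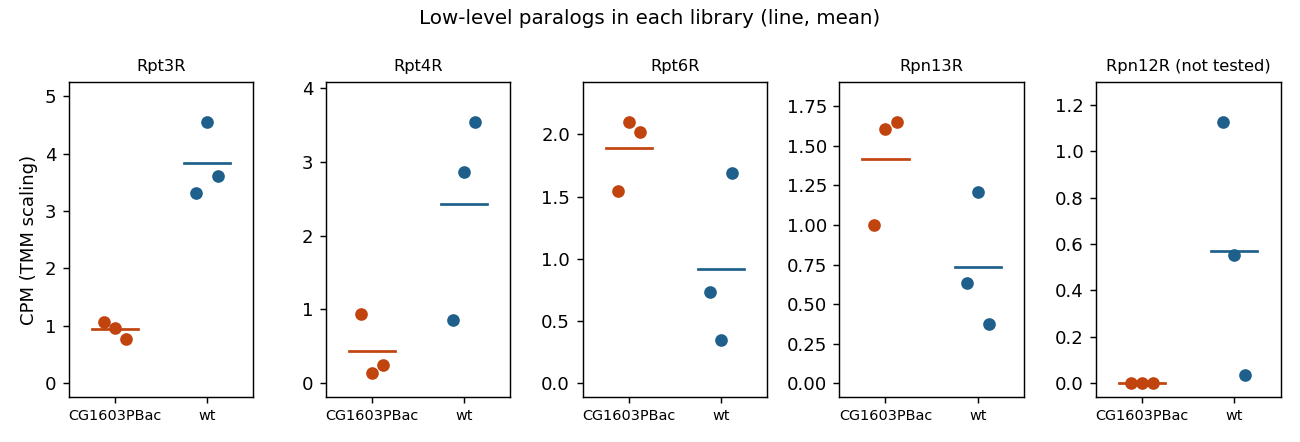
CPM in each library of the 4 paralogs tested and of Rpn12R, which was too low to test, with CG1603PBac (left) and wt (right) in each panel and a line at each mean. The 3 CG1603PBac points of Rpt3R lie apart from the wt points, those of Rpt4R do not, and Rpn12R is at 0 in all 3 CG1603PBac libraries.

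Rpn12R, a paralog of the lid subunit Rpn12, had no count in the 3 CG1603PBac libraries and 34, 16 and 1 counts in the wt libraries. Taking the 3 counts that a count of 0 allows over the group, its summed level was at least 20.8-fold lower in CG1603PBac libraries. Without wt replicate 1, which held 34 of the 51 wt counts, it was at least 10.5-fold lower. The opposite was seen in both paralogs of the alpha subunit Prosalpha4. Prosalpha4T2 had 17, 0 and 10 counts in the CG1603PBac libraries and none in the wt libraries, at least 7.37-fold higher against the same floor, or at least 3.83-fold without CG1603PBac replicate 1. Prosalpha4T1 had 1, 1 and 13 counts in the CG1603PBac libraries and none in the wt libraries, at least 4.09-fold higher, but without CG1603PBac replicate 3 its 2 remaining counts lay under the floor and gave no bound. These settings without a library were chosen after seeing the data. The bounds take the counts of the higher group as they stand and leave out the spread between its libraries. For Rpn12R wt replicate 3 had 1 count, and for Prosalpha4T2 CG1603PBac replicate 2 had 0, so these libraries did not differ from the other group. Rpn12R, Prosalpha4T2 and Prosalpha4T1 did not pass the filter on low counts. With no filter, Rpn12R was called lower (edgeR adjusted p = 0.00197) and Prosalpha4T2 higher (edgeR adjusted p = 0.0192), while Prosalpha4T1 missed the threshold (edgeR adjusted p = 0.0646).

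The other paralogs of the core were at or near 0 in both genotypes. Prosalpha3T had 0, 0 and 8 counts in CG1603PBac and 0, 6 and 0 counts in wt libraries, and Prosbeta2R2 had 0, 0 and 2 counts in CG1603PBac and 0, 10 and 0 counts in wt libraries. Prosalpha6T, Prosbeta4R1, Prosbeta4R2, Prosbeta5R1 and Prosbeta5R2 had at most 2 counts in any library. Prosbeta2R1 had none in any of the 6, which allows up to 0.0966 CPM in CG1603PBac replicate 1 and 0.104 CPM in wt replicate 2. At this depth no difference was detectable for these genes. Such limits hold for the error of counting and for no other.

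Testis genes as a whole were scarce in these larvae. Of 28 testis markers, 12 could be tested, of which 1 was lower (aly, a regulator of meiosis genes, log2 fold change -2.96) and 3 were higher (topi, bol and Mst35Ba), beside 34.9% of all genes lower and 34.8% higher. The gene aly had 3, 0 and 3 counts in CG1603PBac and 18, 13 and 10 counts in wt libraries. Mst35Ba had 11, 23 and 27 counts in CG1603PBac and none in wt libraries. Both passed the filter on low counts only through the genotype where they were higher, so their calls are no separate support. With library totals aly lost its call (edgeR adjusted p = 0.0668), and sa and gdl gained one, which made 5 higher. Their summed level ran from 136 to 155 CPM in CG1603PBac and from 123 to 128 CPM in wt libraries, most of it from bol, and the sperm genes Mst84Da and Mst84Dd were at 0 in all 6 libraries. The noncoding RNAs roX1 and roX2, made in males, had log2 fold changes of 0.91 and 0.61, and the germline gene vas had one of -2.03. The part of these differences in the paralog counts was not tested.

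Around the proteasome, 16 of 22 genes of ubiquitin handling were lower as well. By edgeR's quasi-likelihood test the other 6 were higher, beside 34.9% of all genes lower and 34.8% higher, and the median log2 fold change was -0.50. With library totals the test called 11 lower and 7 higher, beside 22.9% of all genes lower and 50.1% higher, and 4 missed the threshold. The 6 higher genes were thus not a larger share than among all genes. Pomp, the chaperone that assembles the core, had 56.1, 50.6 and 58.3 CPM in CG1603PBac libraries, against 135, 142 and 142 CPM in wt libraries (log2 fold change -1.34, SE 0.07). TER94, the segregase that extracts tagged proteins, had 168, 172 and 159 CPM in CG1603PBac and 341, 369 and 327 CPM in wt libraries (log2 fold change -1.05, SE 0.05). CG5384, the fly Usp14, which trims ubiquitin at the cap, stood at -1.02. The ubiquitin hydrolase Uch-L5, which docks on Rpn13 in mammals, stood at -0.87, the activating enzyme Uba1 at -0.79 and the cap protein REG at -0.71.

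The genes that were higher included a regulator of proteasome genes. The transcription factor cnc, which induces proteasome genes in flies, had 219, 234 and 218 CPM in CG1603PBac libraries, against 140, 137 and 155 CPM in wt libraries (log2 fold change 0.64, SE 0.06). Its partner maf-S had 38.1, 36.7 and 33.9 CPM in CG1603PBac and 26.1, 18.6 and 22.8 CPM in wt libraries (log2 fold change 0.69, SE 0.12). Both thus moved opposite to the subunit genes at the level of RNA. The polyubiquitin genes Ubi-p5E and Ubi-p63E were higher by 0.84 and 0.69 on the log2 scale, the proteasome-binding protein PI31 by 0.65 and the shuttle factor rngo by 0.42. In contrast, RpS27A and RpL40, which encode ubiquitin fused to a ribosomal protein, stood at -0.60 and -0.41. With library totals the 6 higher genes were higher too, whereas RpL40 moved to -0.01. Rad23, ben, vih and Ubqn changed sign, to 0.19, 0.17, 0.10 and 0.05, and of these only Rad23 passed the threshold.

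**Figure D5:**
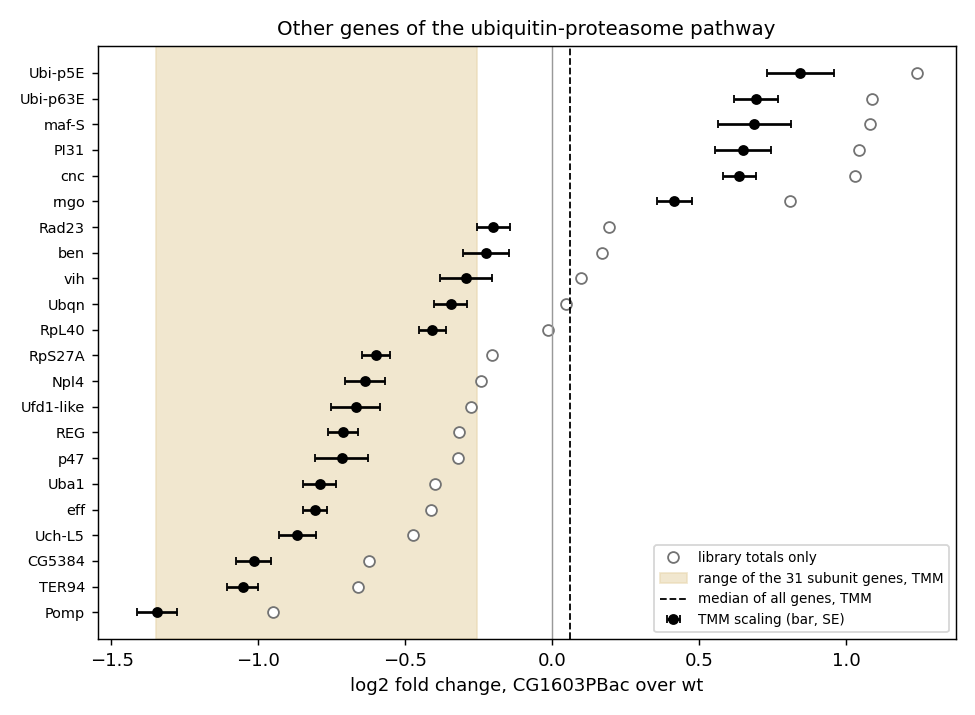
Log2 fold change, CG1603PBac over wt, of 22 other genes of the ubiquitin-proteasome pathway, with TMM scaling (filled, bars for the standard error, n = 3 libraries each) and library totals (open). The shaded band spans the 31 subunit genes, from -1.35 to -0.25. Pomp lies at the low edge of the band, while cnc, maf-S, PI31, rngo and the polyubiquitin genes lie to the right of 0 on both scales.

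Other large complexes also had lower RNA, by a smaller median. Of 86 genes of cytosolic ribosomal proteins tested, 79 were lower and 3 higher, with a median log2 fold change of -0.48. Of 23 V-ATPase genes tested, 18 were lower and 4 higher, with a median of -0.52. Over all genes tested, 34.9% were called lower and 34.8% higher. With library totals 39 ribosomal genes were lower and 21 higher, and 13 V-ATPase genes were lower and 4 higher. On that scale 30 of 31 proteasome subunit genes were lower, and over all genes 22.9% were lower and 50.1% higher. The V-ATPase genes called higher with TMM scaling were Vha100-1, Vha36-3, Vha68-1 and VhaM9.7-a. Both of these groups were taken by symbol with paralogs kept, whereas the 31 proteasome subunit genes leave paralogs out. The sets are thus unlike, and the differences between these groups were not tested.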

How the data were processed

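Poly(A) RNA of 3 CG1603PBac and 3 wt larval samples was sequenced by the authors, who, per the labels, used FastQC, STAR and HTSeq with dm6. The deposited files hold whole-number counts for each gene, which the authors neither normalized nor pooled. The annotation version and the strand setting were not given in the sources used here. HTSeq categories that name no gene stayed out of library sizes and tests. Reads not aligned were 31.4% of all reads in CG1603PBac and 8.77% in wt libraries. Of aligned reads in CG1603PBac libraries, 9.93% aligned to more than 1 place, 5.57% had no feature, 2.02% were ambiguous and 2.62% had low quality. In wt libraries these shares were 5.66%, 2.63%, 2.07% and 2.53%.

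Counts were filtered (filterByExpr, minimum count 10, minimum total 15), scaled by TMM and fitted across all genes with edgeR 4.0.16 in R 4.3.3 (robust quasi-likelihood F test). Benjamini-Hochberg adjustment ran over the 11306 genes tested, and the threshold was 0.05. Calls of more than 2-fold also needed a log2 fold change beyond 1. Standard errors were derived from the F statistic. CPM use TMM factors, and CPM per kb the union exon length in the Ensembl annotation (dm6 coordinates), to which 16497 of 16727 symbols and all 47 genes described matched. A count of 0 was taken to allow 3 counts. The steps were run on simulated counts with known changes in few genes, in both directions. Such counts do not test the scaling where most genes differ, as they did here.

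Alternatives were DESeq2 size factors, library totals, DESeq2 1.42.0, limma-voom (limma 3.58.1), other filters, a replicate block, removal of the length trend (loess, span 0.5) and each library left out. Replicates differed by more than sampling noise (chi-square per gene 7.53 to 17.4), and all 6 libraries were kept.

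Every gene matching the symbol rule is named or counted, with full values for the paralogs tested and for the 3 highest and 3 lowest fold changes of core, base and lid. The genes, the lists and the comparisons were chosen with earlier results of these data known, and the study's supplementary tables, which list some of these genes, had been seen. The authors' own supplementary comparisons were not used.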

Additional observations from a re-analysis of the deposited data

Results flagged for a closer look

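The share of reads left without an alignment was 31.4 ± 0.445% in CG1603PBac libraries and 8.77 ± 0.354% in wt libraries (SD, n = 3 each). They lie outside the gene counts, and the CG1603PBac level stood above that of wt in 3 of 3 libraries. Of aligned reads, 9.93 ± 0.0717% in CG1603PBac and 5.66 ± 0.204% in wt libraries aligned to more than 1 place and so were counted for no gene. What these reads hold and their part in the proteasome results was not tested.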

How the results depend on the processing

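Of 465 values of the 31 subunit genes under 15 alternatives, 462 stayed lower and past the threshold, and the largest shift when 1 library was left out was 0.08 on the log2 scale. The 3 exceptions were those of Rpn13, with 0.14 under library totals, -0.14 with the length trend removed and -0.14 with the length trend removed and the replicate block (edgeR adjusted p = 0.0633, 0.0631 and 0.0711). The count of proteasome genes called higher, and likewise that of paralogs, was 0 and became 1 with no filter on low counts (Prosalpha4T2), 1 with at least 10 counts in every library (Rpt6R, log2 fold change 1.07) and between 0 and 1 with a library left out (1 without wt replicate 3, Rpt6R again). With at least 10 counts in every library Rpt4R could not be tested, so 1 paralog rather than 2 was called lower. That count rose to 3, with Rpn12R added, with no filter and without CG1603PBac replicate 1, 2 or 3 or wt replicate 3. In the fits with a library left out, Rpn12R passed the filter only through wt libraries, since it had no count in CG1603PBac. Its call in those fits is therefore no separate support. The log2 fold change of Rpt4R ran from -3.63 to -2.05 with a library left out. Over all genes, 3946 were called lower with TMM scaling and 2585 with library totals, and the share of calls that were higher was 49.94% with TMM scaling and 68.65% with library totals. Replicate numbers did not pair the samples (correlation of deviations -0.02 to 0.01), and the replicate block changed the call of 0 of 35 proteasome genes. Depth limits the 11 paralogs that were not tested.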
